A study of Arabidopsis thaliana with 18 samples.

Results

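The warmth response of pifQ seedlings was examined by comparing 3 libraries of pifQ kept for 24 h at 28°C with 3 libraries of pifQ kept for 24 h at 22°C, which are 6 of the 18 libraries of the study. The members were chosen by the genotype and temperature in the sample labels, and every gene that passed the filter on low counts was tested. pifQ is a quadruple mutant in Col-0 that lacks PIF1, PIF3, PIF4 and PIF5, and the alleles combined in it are not given in the sources used here. Whole seedlings were grown in continuous white light on medium without sucrose, and the labels give an age of 5 days, whereas the text of the study gives an older age. The other libraries of the study are 3 of Col-0 and 3 of hec1hec2 at each temperature, and RNA was read by 3′ Tag-Seq, which counts transcript ends. Because whole seedlings were sampled, fewer cells of a type and less RNA per cell cannot be told apart.

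PHYTOCHROME INTERACTING FACTORS (PIFs) are basic helix-loop-helix transcription factors that bind G-boxes in promoters and are removed or inactivated by light-activated phytochromes. In warm conditions PIF4 in particular turns on auxin synthesis and growth genes, which drives the elongation of hypocotyls and petioles known as thermomorphogenesis. HEC1 and HEC2 are related helix-loop-helix proteins that can bind PIFs. Warmth also acts through routes that do not need PIFs, including heat shock factors and the circadian clock.

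The pifQ libraries held 4705322 to 4913515 counts at 28°C and 4154326 to 5196294 counts at 22°C, and 3 counts, the floor of detection, were at most 7.22e-05% of a pifQ library. pifQ 22°C replicate 2 stood apart. Its counts, set against the other 22°C libraries of pifQ, stepped down 3 times in gene order, at AT1G33170, AT2G37640 and AT5G04140, and in the last segment they were 30.3% of the level in the first. The same search found 0 steps in each of the other 17 libraries. Every result was therefore computed with and without this library, and a gene is called here only where it changed at least 2-fold with an adjusted p (FDR) of at most 0.05 in edgeR's quasi-likelihood test. Values are CPM, counts scaled to a common library size by TMM, listed in the order of replicates 1, 2 and 3.

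With all libraries, 742 of 18078 tested genes were higher in pifQ at 28°C (4.1%) and 672 were lower (3.72%). Without 22°C replicate 2 the numbers were 735 and 595 of 18385 tested genes. Of the calls from all libraries, 579 were called higher in both fits (3.2% of tested genes) and 485 lower in both fits (2.68%). None had opposite signs in both, but the fits share all other libraries, so opposite calls were hardly possible. The counts of calls thus changed little, whereas 350 of the calls were lost without that library. In 564 of the 579 higher genes all 28°C libraries lay above all 22°C libraries, which was true of 18.3% of all tested genes, and in 463 of the 485 lower genes they all lay below, which was true of 17.6%. Of these genes, 331 of the 579 and 272 of the 485 averaged at least 10 CPM in the group where they were higher.

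**Figure D1:**
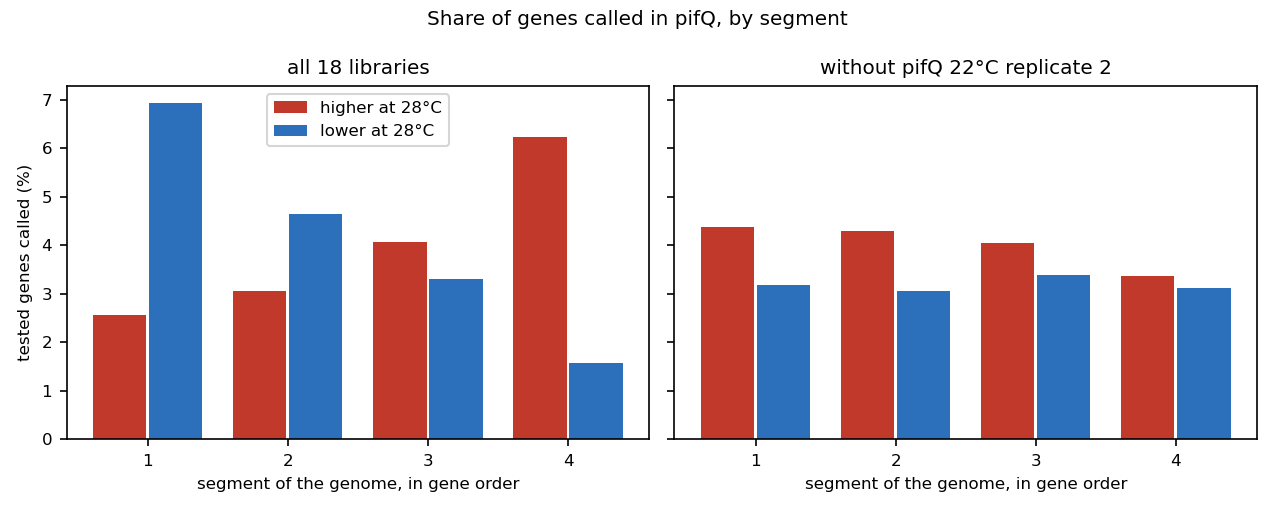
Share of tested genes called higher (red) or lower (blue) at 28°C in pifQ, in percent, for the 4 segments of the genome between the steps of 22°C replicate 2, with all 18 libraries (left) and without that library (right). With all libraries 2.56% of genes in segment 1 were higher and 6.94% lower, and 6.23% in segment 4 were higher and 1.58% lower. Without it the shares were 4.38% and 3.17% in segment 1 and 3.37% and 3.12% in segment 4.

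The direction of a call depended on where the gene lies. The plot of calls by segment shows that with all libraries lower calls prevailed in segment 1 and higher calls in segment 4, and that the shares were more even without 22°C replicate 2. The median log2 fold change was -0.25 in segment 1 and 0.26 in segment 4 with all libraries, and 0.01 in each of the segments without that library. CPD, an enzyme of brassinosteroid synthesis, and GID1C, a gibberellin receptor, both on chromosome 5, show what this does to single genes, and were chosen after their values were seen. CPD had 250, 205 and 231 CPM at 28°C, against 136, 61.5 and 123 CPM at 22°C, and its log2 fold change of 1.09 with all libraries was 0.81 without replicate 2. GID1C had 22.3, 22.2 and 20.3 CPM at 28°C, against 12.9, 5.19 and 11.5 CPM at 22°C, and its log2 fold change was 1.10 with all libraries and 0.82 without. The groups did not overlap for either gene, but neither passed the 2-fold cutoff in the second fit, and no gene of the gibberellin and brassinosteroid list (18 tested) was called in both.

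The largest rises in pifQ were in genes of seed maturation and desiccation. Among the 12 genes that rose most were a 12S storage globulin, an oil body protein and late embryogenesis abundant (LEA) proteins, which protect dry cells. The 12 were ranked by the smaller of their changes in both fits. Only genes with at least 10 CPM in the higher group and no overlap between the groups were eligible, and the same held for falls. AT2G18540, a cupin of the family of seed storage globulins, had 13.9, 27.9 and 26.5 CPM at 28°C, against 0, 0.519 and 0.692 CPM at 22°C (log2 fold change 5.83, SE 0.53, edgeR FDR = 1.2e-08, and 6.06 without 22°C replicate 2). CRA1, a 12S cruciferin, had 13.3, 11.2 and 9.74 CPM at 28°C, against 0.192, 0.519 and 0.231 CPM at 22°C (5.13, SE 0.66, edgeR FDR = 1.8e-06, and 5.59 without). OLEO2, an oleosin that coats oil bodies, had 10.7, 18.9 and 12.9 CPM at 28°C, against 0.577, 0.778 and 0.231 CPM at 22°C (4.69, SE 0.43, edgeR FDR = 1.3e-08, and 5.00 without). All of these were close to silent at 22°C and clearly counted in every 28°C library. No 22°C library held more than 3 counts of any of them, the floor, so the sizes of these changes are uncertain.

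The sequences upstream of these genes are shown because abscisic acid acts on seed maturation genes through ACGT-containing elements. For the 300 bases before each annotated gene start, taken from RefSeq TAIR10.1 and written in the direction of the gene, both strands were searched for ACGTGNC, an ABRE-like element. The first and second sequences belong to the genes among the 12 with the most matches, and RAB18 was added as a well-known abscisic acid target. Capitals mark the matches, which may overlap on opposite strands.
AT3G53040: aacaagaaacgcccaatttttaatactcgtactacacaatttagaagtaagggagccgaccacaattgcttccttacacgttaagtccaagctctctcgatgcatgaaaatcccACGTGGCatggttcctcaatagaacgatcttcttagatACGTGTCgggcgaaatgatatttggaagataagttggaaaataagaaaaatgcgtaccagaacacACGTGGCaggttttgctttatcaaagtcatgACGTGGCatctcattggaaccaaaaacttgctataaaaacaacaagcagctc
AT2G18540: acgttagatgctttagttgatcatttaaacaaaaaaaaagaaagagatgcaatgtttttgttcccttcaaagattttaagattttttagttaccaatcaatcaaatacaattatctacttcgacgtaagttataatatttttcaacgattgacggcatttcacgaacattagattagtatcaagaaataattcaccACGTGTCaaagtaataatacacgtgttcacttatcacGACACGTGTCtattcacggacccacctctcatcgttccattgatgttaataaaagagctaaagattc
RAB18: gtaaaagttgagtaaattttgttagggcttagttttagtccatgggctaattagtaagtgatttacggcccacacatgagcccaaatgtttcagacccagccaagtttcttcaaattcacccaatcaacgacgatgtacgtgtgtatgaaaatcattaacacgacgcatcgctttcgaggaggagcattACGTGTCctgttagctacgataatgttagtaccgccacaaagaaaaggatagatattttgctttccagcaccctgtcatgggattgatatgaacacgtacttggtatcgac
The window of AT3G53040 held 4 matches, that of AT2G18540 3 and that of RAB18 1. Of the others among the 12, PER1, AT3G17520 and AT4G21020 had 2 matches each and LEA18 had 1. CRA1, OLEO2, AT3G54940, PI, AT3G03341 and AT2G15880 had 0, so the element was not general even among these genes. Some genes that fell had matches too, such as F3H with 2. Of the genes higher in both fits, 121 of 579 (20.9%) had a match, against 11.4% of the genes lower in both fits and 10.7% of all tested genes with a window. The G-box CACGTG, which can share letters with ACGTGNC, was found in 14.9% of the higher genes, 9.5% of the lower genes and 8.16% of all. The evening element AAAATATCT was found in 3.97%, 3.93% and 2.98%, and GAANNTTC, the core of the heat shock element, in 10.9% of the higher, 11% of the lower and 11% of all genes. These are counts of letters in a window and do not show binding.

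Other genes of this kind rose as well. PER1, a peroxiredoxin of seeds, had 32.2, 42.7 and 34 CPM at 28°C, against 1.15, 2.33 and 0.922 CPM at 22°C (log2 fold change 4.65, SE 0.33, edgeR FDR = 1.9e-10). The LEA genes AT3G53040, AT3G17520, AT4G21020 and LEA18 had log2 fold changes of 4.28, 4.10, 3.89 and 3.71 with all libraries, and 4.47, 4.38, 3.76 and 4.11 without 22°C replicate 2. RAB18, a dehydrin, had 105, 111 and 107 CPM at 28°C, against 9.04, 3.89 and 10.8 CPM at 22°C (3.73, SE 0.25, edgeR FDR = 9.6e-11, and 3.44 without). For each of these genes the groups did not overlap. For RAB18, which lies in segment 4 on chromosome 5, replicate 2 was the lowest library at 22°C.

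After these genes were seen, all genes whose annotated product names a late embryogenesis abundant, dehydrin, oleosin or seed maturation protein were collected, apart from the hydroxyproline-rich family, and this list is a description only. Of its 76 genes 48 were tested, and of these 25 were higher in both fits (52.1%) and 1 was lower (2.08%), against 3.2% higher and 2.68% lower of all tested genes. The median log2 fold change was 1.61, and 1.53 without 22°C replicate 2, against 0.00 and 0.01 over all tested genes. The lower gene was LEA3, with 3.64, 3.66 and 3.52 CPM at 28°C, against 10.8, 22.3 and 8.99 CPM at 22°C. The list was higher in Col-0 too, with 23 genes called higher and 4 called lower by the same test and a median of 1.05 there, where 3.86% of all tested genes were called higher and 4.09% lower. Seed storage markers moved with it: over all 7 of them the summed level was 11.2 to 13.8 CPM in the 28°C libraries and 0.77 to 3.03 CPM in the 22°C libraries, only CRA1 passed the filter, and their part in the result was not tested.

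The remaining genes of the 12 were of other kinds. PI, the floral homeotic gene PISTILLATA, had 15, 12.4 and 12.2 CPM at 28°C, against 0.961, 0.778 and 1.15 CPM at 22°C (log2 fold change 3.73, SE 0.39, edgeR FDR = 1.1e-07, and 3.62 without 22°C replicate 2). Over the 5 flower markers the summed level was 13.6 to 17.4 CPM at 28°C and 2.1 to 2.69 CPM at 22°C, 2 of the 5 had 0 counts in all 6 libraries, and PI made up most of the sum at 28°C. AT3G54940, a papain-type protease, AT3G03341, annotated as cold-regulated, and AT2G15880, a leucine-rich repeat protein, had log2 fold changes of 4.12, 3.53 and 3.53. Root markers did not move as a group, with a median log2 fold change of -0.10 over the 9 tested. Of these 1 was called, higher in both fits (11.1%, against 3.2% of all tested genes). It was CASP5, a Casparian strip protein (17.4, 39.4 and 32.3 CPM at 28°C, against 13.8, 7.78 and 14.8 CPM at 22°C).

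**Figure D2:**
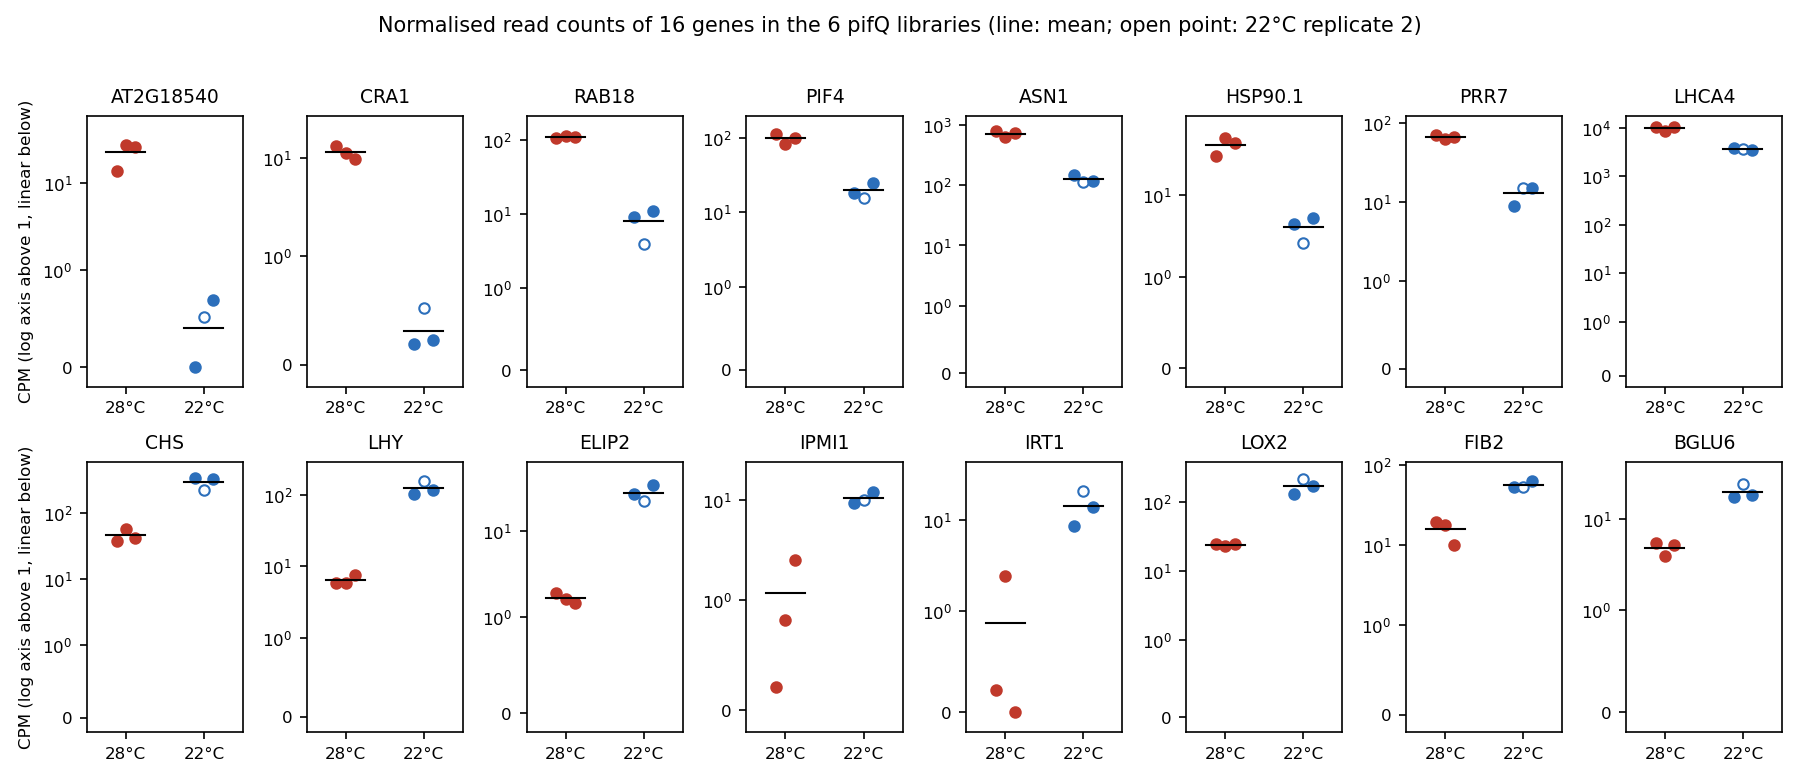
CPM of 16 genes in each pifQ library (log axis above 1 CPM, linear below), 28°C at left in red and 22°C at right in blue, with the mean as a line and 22°C replicate 2 as an open point. The genes of the upper row were higher at 28°C and those of the lower row lower, and in no panel do the groups overlap. RAB18 lay between 105 and 111 CPM at 28°C, against 3.89 to 10.8 CPM at 22°C.

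Of the PIF genes, PIF4 rose. It had 112, 82.1 and 99.9 CPM at 28°C, against 18.3, 15.6 and 25.1 CPM at 22°C (log2 fold change 2.31, SE 0.17, edgeR FDR = 3.0e-10, and 2.19 without 22°C replicate 2). In Col-0 the change was 2.35, and the difference between the genotypes was -0.04 (edgeR FDR = 0.98). 3′ counts do not show whether the transcript left in the mutant is complete. PIF1 was also still counted, at 19.3, 19.7 and 19.1 CPM at 28°C, against 12.7, 17.1 and 15.9 CPM at 22°C, and missed the cutoffs at 0.35.

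PIF3 and PIF5 showed the loss of transcript that the genotype implies. PIF5 had 0.61 to 1.87 CPM in pifQ at 28°C and 93.7 to 113 CPM in Col-0 at 28°C, and 1.35 to 2.77 CPM in pifQ at 22°C and 43.5 to 46.8 CPM in Col-0 at 22°C. PIF3 stayed at or below 1.29 CPM in every pifQ library, against at least 14.3 CPM in every Col-0 library. UNE10, also known as PIF8, fell, with 10.7, 11 and 13.5 CPM at 28°C, against 23.5, 23.6 and 30.2 CPM at 22°C (-1.13, SE 0.20, edgeR FDR = 0.00011, and -1.18 without). Of the 8 tested PIF and HEC genes PIF4 and UNE10 were the only ones called, 1 higher and 1 lower in both fits. Each is a share of 12.5%, against 3.2% higher and 2.68% lower of all tested genes.

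Growth and auxin genes were described from lists of known targets. Among the 17 tested growth regulators that PIFs are known to control, 2 were higher (11.8%, against 3.2% of all tested genes) and none lower in both fits, and the median log2 fold change was 0.27. PAR1, an atypical helix-loop-helix inhibitor of growth, had 21.7, 13 and 14.7 CPM at 28°C, against 7.11, 7.52 and 8.76 CPM at 22°C (1.08, SE 0.21, edgeR FDR = 0.00035). ST2A, a sulfotransferase of jasmonate metabolism, had 3.86, 5.08 and 4.56 CPM at 28°C, against 1.15, 1.3 and 0.692 CPM at 22°C (2.08, SE 0.35, edgeR FDR = 6.6e-05). Both sets of libraries were separate. HFR1, ATHB2 and PRE1, which shade and warmth induce in wild type, had log2 fold changes of 0.41, 0.30 and 0.80 in pifQ and missed the cutoffs, with 2.33, 1.40 and 1.57 in Col-0. The difference between the genotypes did not pass for HFR1, ATHB2 or PRE1 (edgeR FDR = 0.156, 0.599 and 0.69). BEE1 was called lower at -1.11 only with all libraries (-0.98 without).

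For auxin, TAA1, which makes the precursor indole-3-pyruvate, was lower, with 6.43, 6.1 and 4.35 CPM at 28°C, against 13.7, 14.3 and 8.99 CPM at 22°C (log2 fold change -1.13, SE 0.29, edgeR FDR = 0.0047, and -1.02 without 22°C replicate 2). TAA1 was also lower in Col-0, at -1.03 (edgeR FDR = 0.0101), and the difference between the genotypes was -0.09 (edgeR FDR = 0.97). YUC8, which completes the synthesis of auxin, had 5.57, 3.46 and 4.98 CPM at 28°C, against 4.04, 4.41 and 3.46 CPM at 22°C, and the groups overlapped (0.23, edgeR FDR = 0.60). YUC8 was higher in Col-0, at 1.44 (edgeR FDR = 0.00023), but the difference of -1.21 between the genotypes did not pass (edgeR FDR = 0.455). Of 21 tested SAUR genes, early auxin targets in cell expansion, 1 was called higher in pifQ, SAUR21 (1.17), a share of 4.76% against 3.2% of all tested genes, and 12 were called higher in Col-0, against 3.86% of all tested genes there. The medians were 0.21 in pifQ and 1.18 in Col-0. For 20 of the 21 the fitted response was smaller in pifQ than in Col-0, but no SAUR gene passed the test of that difference. Of 18 tested Aux/IAA and GH3 genes 1 was called, IAA34 (1.77), a share of 5.56% against 3.2% of all tested genes. IAA34 rested on few counts, 14, 12 and 8 at 28°C and 2, 3 and 4 at 22°C. In Col-0 6 of the 18 were called higher, and the medians were 0.15 in pifQ and 0.56 in Col-0. SAUR and Aux/IAA genes have near-identical copies, so that the counts of single genes are uncertain.

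Cell wall genes changed in both directions. Of 35 tested expansin and XTH genes, which loosen and remodel the wall, 4 were higher and 4 lower in both fits (11.4% each, against 3.2% and 2.68% of all tested genes). XTH25 had 2.79, 2.85 and 4.56 CPM at 28°C, against 0.192, 0.259 and 0.231 CPM at 22°C (log2 fold change 3.77, SE 0.57, edgeR FDR = 2.1e-05). Each 22°C library held 1 count of XTH25, so the size of its change is uncertain. EXPA2 and XTH6 had log2 fold changes of 2.41 and 1.36, and EXPA5, EXPA10 and XTH20 of -1.42, -1.69 and -1.88.

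The responses of pifQ and Col-0 were compared directly by the difference of their log2 fold changes in the same model. With all libraries 10 of 18078 genes differed (0.0553%), all 10 with a lower response in pifQ, and without 22°C replicate 2 19 genes differed, among them the same 10. At an unadjusted p under 0.05 the number was 1393. Of the 10, 9 had a positive log2 fold change in Col-0, and 6 of these were called higher there. AT5G02540, a Rossmann-fold protein, had 3.43, 2.24 and 3.11 CPM in pifQ at 28°C, against 3.08, 3.63 and 4.84 CPM in pifQ at 22°C. In Col-0 it had 21.1, 15.1 and 16 CPM at 28°C, against 2.3, 2.73 and 3.39 CPM at 22°C. The response difference of -3.0 (SE 0.41, edgeR FDR = 0.0021) was called in all 13 alternative fits.

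Of the 10 genes, BGLU6 and AT1G48100, a pectin lyase-like protein, were the only ones called in pifQ itself, both lower. AT3G55240, of unknown function, differed by -2.30, AT1G12080, annotated as vacuolar calcium-binding, by -2.05, and AT2G14900, of the gibberellin-regulated family, by -1.57. BGLU6, a beta-glucosidase, fell in pifQ, with 5.36, 3.86 and 5.18 CPM at 28°C, against 17.1, 23.9 and 18.2 CPM at 22°C, and in Col-0 it had 10.9, 9.99 and 12.7 CPM at 28°C, against 15.6, 11.6 and 16.3 CPM at 22°C (difference -1.66, edgeR FDR = 0.028). AT1G48100, AT1G05835, annotated as a PHD finger protein, and MSS3, a calcium-binding protein, differed by -1.86, -1.28 and -1.06. IAA14, a repressor of auxin responses, had 20.8, 18.3 and 16.2 CPM in pifQ at 28°C, against 19.6, 18.2 and 16.8 CPM in pifQ at 22°C. In Col-0 IAA14 had 36.8, 34.3 and 35.1 CPM at 28°C, against 18.2, 14.5 and 17.6 CPM at 22°C (difference -1.06, edgeR FDR = 0.0498). IAA29, chosen after its values were seen, had a log2 fold change of -0.59 in pifQ and 2.68 in Col-0, a difference that passed without 22°C replicate 2 (edgeR FDR = 0.034) and not with all libraries (edgeR FDR = 0.053).

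**Figure D3:**
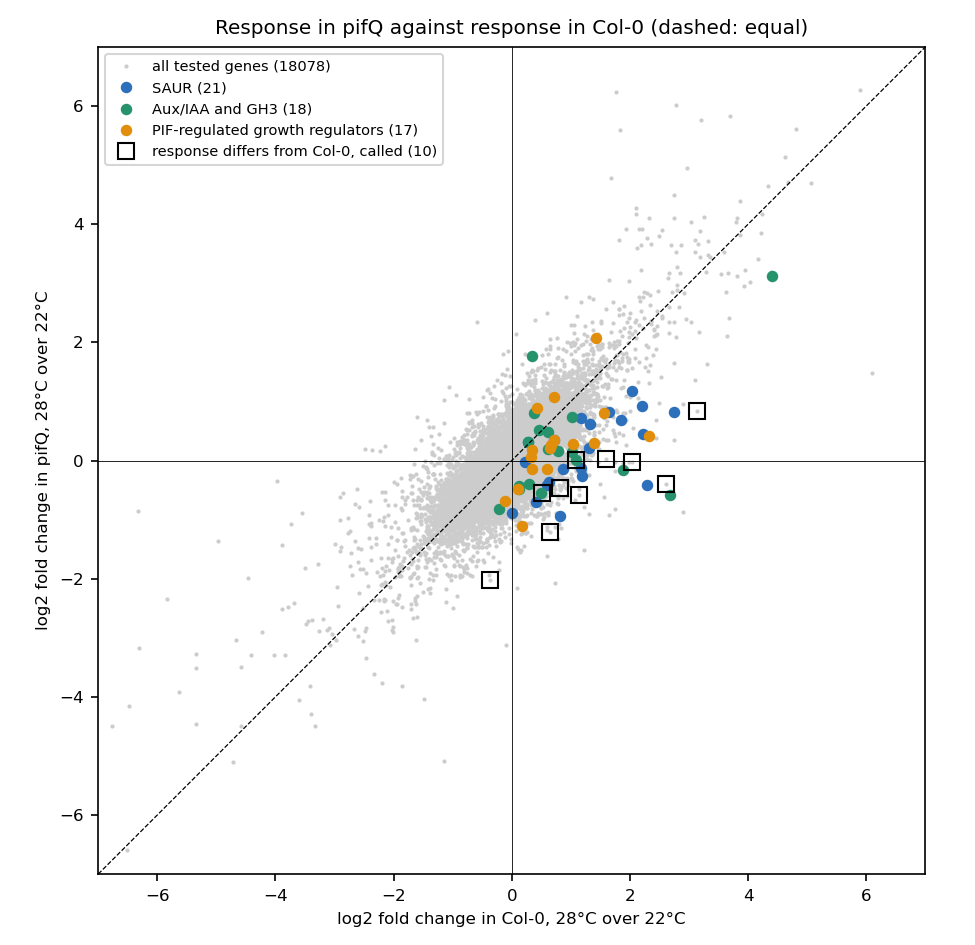
log2 fold change at 28°C over 22°C in pifQ (vertical) against that in Col-0 (horizontal) for the 18078 tested genes, with SAUR, Aux/IAA and GH3, and growth regulator genes coloured and the 10 genes whose response differed by the test boxed. SAUR points lie to the right of the dashed line of equal response for 20 of 21 genes, and the boxed genes lie below it.

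Most other responses were shared in direction. Of the 1064 genes called in both fits, 1045 had the same sign in Col-0 and 694 were also called there. The median log2 fold change of the higher genes was 1.54 in pifQ without 22°C replicate 2 and 1.24 in Col-0. These genes were chosen by their calls in pifQ, which by itself favours the larger median there. The medians therefore do not compare the strength of the responses. Pearson's r between the log2 fold changes in pifQ and Col-0 was 0.775 across the 18078 genes, which are not independent replicates. Against the libraries labelled hec1hec2, 85 genes differed (0.47%), 19 with a higher and 66 with a lower response in pifQ, and 68 of them also without 22°C replicate 2. The level of HEC1 leaves that label uncertain, with 600 to 687 CPM at 28°C and 566 to 727 CPM at 22°C in those libraries. Col-0 had 8.49 to 13.9 CPM at 28°C and 7.21 to 14.5 CPM at 22°C. pifQ had 6.01 to 12.6 CPM at 28°C and 3.37 to 6.15 CPM at 22°C. 3′ counts do not show whether the HEC1 transcript in the libraries labelled hec1hec2 is complete.

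Flavonoid and anthocyanin enzymes fell as a block. Of 15 tested, 13 were lower in both fits (86.7%, against 2.68% of all tested genes) and none higher. The median log2 fold change was -2.70 in pifQ and -3.26 in Col-0. CHS, chalcone synthase, which starts the pathway, had 37.3, 56.7 and 41.5 CPM at 28°C, against 334, 223 and 326 CPM at 22°C (-2.70, SE 0.17, edgeR FDR = 3.3e-11, and -2.87 without 22°C replicate 2). F3H, flavanone 3-hydroxylase, had 7.72, 8.94 and 8.91 CPM at 28°C, against 59.4, 77.8 and 60.9 CPM at 22°C (-2.94, SE 0.16, edgeR FDR = 4.2e-12). FLS1, DFR, GSTF12 and UGT79B1, which act in flavonol synthesis, anthocyanidin synthesis, vacuolar deposition and glycosylation of anthocyanins, had log2 fold changes of -2.88, -3.18, -3.52 and -3.29. No library at 28°C reached the level of any at 22°C for these genes.

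LDOX, a late step of anthocyanin synthesis, was singled out after its values were seen. It had 1.5, 2.03 and 3.94 CPM in pifQ at 28°C, against 7.88, 18.7 and 12.7 CPM in pifQ at 22°C, and 0.435, 0.27 and 0.205 CPM in Col-0 at 28°C, against 18.4, 14.8 and 23.5 CPM in Col-0 at 22°C. The difference of 3.50 missed the FDR with all libraries (0.11) and passed without 22°C replicate 2 (0.012, both edgeR), and its size is uncertain because each Col-0 library at 28°C lay under the floor of 3 counts. No other enzyme of the list passed this test in either fit. Of 9 tested regulators 1 was higher (11.1%) and 2 were lower (22.2%) in both fits, against 3.2% and 2.68% of all tested genes. MYBL2, a repressor of anthocyanin synthesis, rose, with 51.4, 51.6 and 39.6 CPM at 28°C, against 9.81, 16.1 and 11.5 CPM at 22°C (log2 fold change 1.95), and MYB111 and EGL3, activators of the pathway, fell (-2.76 and -1.29).

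Of 28 tested light-signalling genes 3 were lower in both fits (10.7%, against 2.68% of all tested genes) and none higher. ELIP2, an early light-induced protein, had 1.93, 1.63 and 1.45 CPM at 28°C, against 27.1, 22.6 and 34.1 CPM at 22°C (log2 fold change -4.05, SE 0.31, edgeR FDR = 6.3e-10). ELIP1 and HYH, the homolog of the light-signalling factor HY5, were lower by log2 fold changes of -2.69 and -1.37. Among light-harvesting antenna and Rubisco small subunit genes, 8 of 22 tested were higher (36.4%) and 1 lower (4.55%) in both fits. The median was 0.61, and the shares over all tested genes were 3.2% and 2.68%. LHCA4 had 10400, 8530 and 10100 CPM at 28°C, against 3860, 3670 and 3510 CPM at 22°C (1.39, SE 0.11, edgeR FDR = 6.3e-10), and LHCA1, LHCB1.5, LHCB3 and LHCB2.2 had log2 fold changes of 1.33, 1.40, 1.53 and 1.20. LHCB4.3 went the other way, with 19.9, 15.9 and 18.2 CPM at 28°C, against 54.8, 47 and 46.1 CPM at 22°C (-1.45). Reads of LHCB1 and LHCB2 copies can be shared between near-identical genes.

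The circadian clock was shifted in both directions, with 8 of 31 tested genes higher (25.8%) and 6 lower (19.4%) in both fits. Over all tested genes the shares were 3.2% and 2.68%. LHY, a morning-phased repressor, had 5.79, 5.9 and 7.46 CPM at 28°C, against 104, 157 and 117 CPM at 22°C (log2 fold change -4.29, SE 0.21, edgeR FDR = 5.9e-13, and -4.11 without 22°C replicate 2), the largest fall of the 12. RVE2, CO, COL2 and RVE8 were lower by log2 fold changes of -2.06, -2.48, -1.42 and -1.42. PRR7, a daytime repressor of LHY, had 70.3, 64 and 66.1 CPM at 28°C, against 8.84, 15.3 and 15.2 CPM at 22°C (2.37, SE 0.17, edgeR FDR = 2.1e-10). RVE7, LNK1, LNK4 and GI rose, with 2.26, 1.82, 1.81 and 1.70. LNK1 and LNK4 lie on chromosome 5 and had 1.52 and 1.51 without 22°C replicate 2. Libraries were taken at 1 time, so levels and phase cannot be told apart. LHY did not differ in response from Col-0 by the test (-0.89, edgeR FDR = 0.49).

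**Figure D4:**
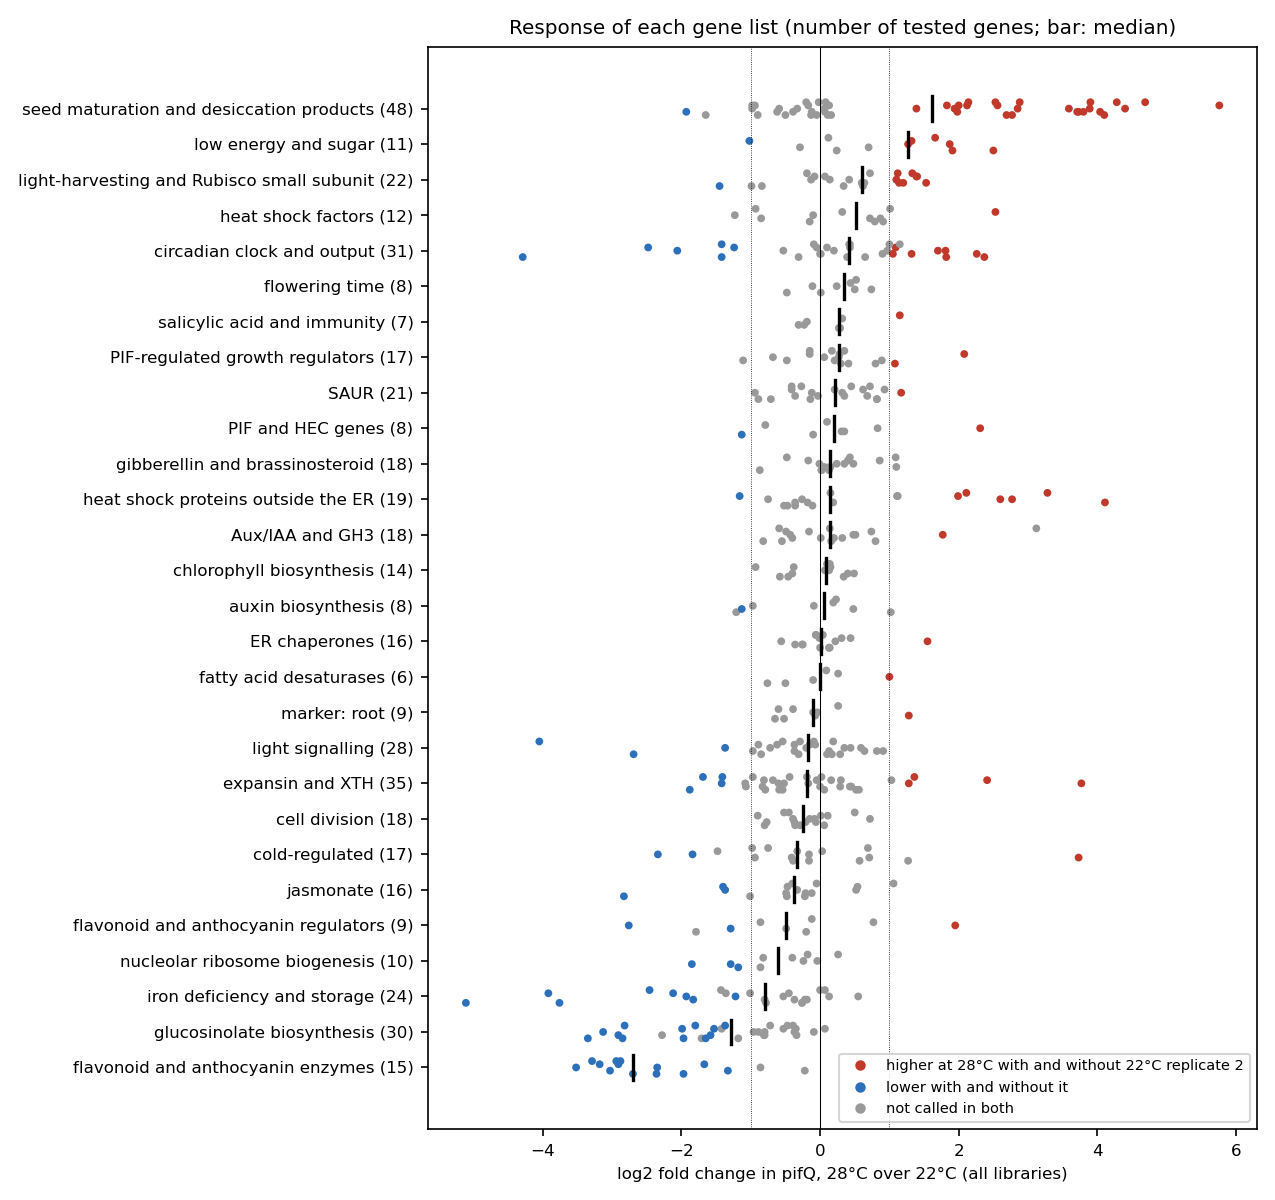
log2 fold change at 28°C over 22°C in pifQ for each tested gene of each list with at least 6 tested genes, ordered by median (black bar), with genes higher in both fits red, lower in both fits blue and all others grey. Medians ran between -2.70 for flavonoid and anthocyanin enzymes and 1.61 for seed maturation and desiccation products, against 0.00 over all tested genes.

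Genes of low energy and sugar starvation rose. Of 11 tested, 6 were higher (54.5%) and 1 lower (9.09%) in both fits, against 3.2% and 2.68% of all tested genes. The median log2 fold change was 1.27. ASN1, an asparagine synthetase, had 796, 617 and 723 CPM at 28°C, against 146, 113 and 118 CPM at 22°C (2.50, SE 0.18, edgeR FDR = 1.9e-10, and 2.43 without 22°C replicate 2). SEN1, a gene induced by darkness, BGAL4, a beta-galactosidase, DIN10, of the raffinose synthase family, and TPS11, a trehalose phosphate synthase homolog, had log2 fold changes of 1.87, 1.91, 1.66 and 1.32. APL3, a subunit of the enzyme that supplies starch synthesis, was lower at -1.02.

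Heat shock genes were induced in part. Of 19 tested heat shock proteins outside the endoplasmic reticulum 6 were higher (31.6%) and 1 lower (5.26%) in both fits. The shares over all tested genes were 3.2% and 2.68%, and the median of the list was 0.15. HSP90.1 had 29.6, 49.8 and 42.9 CPM at 28°C, against 4.42, 2.59 and 5.3 CPM at 22°C (log2 fold change 3.28, SE 0.23, edgeR FDR = 1.9e-10). MBF1C, a heat-induced coactivator, had 77.6, 93.9 and 65.5 CPM at 28°C, against 12.9, 15 and 13.1 CPM at 22°C (2.53, SE 0.17, edgeR FDR = 9.6e-11). HSP70 and HSP17.4 had log2 fold changes of 2.11 and 2.60, and AT3G09440, an HSP70-family protein, went down, with 81.2, 102 and 90.8 CPM at 28°C, against 208, 198 and 205 CPM at 22°C (-1.16). Of 16 chaperones of the endoplasmic reticulum only ERDJ3A was called (1.55), and of the 12 heat shock factors and coactivators MBF1C was the only one called in both fits.

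Glucosinolate synthesis, which makes sulfur-rich defence compounds, was lower. Of 30 tested genes 29 had a negative log2 fold change, and 15 were called lower with all libraries. In both fits 12 were lower (40%, against 2.68% of all tested genes). The median was -1.28 and, without 22°C replicate 2, -1.07. IPMI1, an isomerase of methionine chain elongation, had 0.214, 0.813 and 2.49 CPM at 28°C, against 9.42, 10.1 and 12.2 CPM at 22°C (-3.13, SE 0.40, edgeR FDR = 1.7e-06). BCAT4, which starts the chain elongation, CYP79F1, which makes aldoximes, GSTF11 and the S-oxygenating FMO GS-OX3 had log2 fold changes of -3.35, -2.91, -2.82 and -2.85. The groups did not overlap for these genes, and IPMI1 is among the 12 largest falls, for which this was required.

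Iron acquisition fell too, with wide spread between libraries. Of 24 tested iron genes 8 were lower in both fits (33.3%, against 2.68% of all tested genes) and none higher, with a median of -0.79. IRT1, the main iron importer of roots, had 0.214, 2.44 and 0 CPM at 28°C, against 8.46, 20.5 and 13.8 CPM at 22°C (log2 fold change -3.92, SE 0.66, edgeR FDR = 7.8e-05). FRO2, a ferric reductase, had 0.429, 1.02 and 0.415 CPM at 28°C, against 2.31, 18.9 and 6.23 CPM at 22°C, and its log2 fold change of -3.76 was -2.68 without replicate 2, where the gene lies in segment 1. NAS4, a nicotianamine synthase, had -2.46 and -2.01 without. Replicate 1 was the lowest of its 22°C group for all of these genes.

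Some genes of jasmonate synthesis fell. LOX2, a lipoxygenase that starts jasmonate synthesis, had 24.2, 23 and 24.3 CPM at 28°C, against 129, 211 and 169 CPM at 22°C (log2 fold change -2.83, SE 0.19, edgeR FDR = 9.6e-11), AOC1 and AOC2, of the same pathway, had -1.37 and -1.40, and these were the 3 jasmonate genes of 16 lower in both fits (18.8%, against 2.68% of all tested genes). Of 17 cold-regulated genes COR15B and KIN1 were lower in both fits (-2.34 and -1.84), a share of 11.8% against 2.68% of all tested genes. RAB18 on the same list rose (5.88%, against 3.2% of all tested genes). The median of the list was -0.33 and, without 22°C replicate 2, -0.15. AT4G30650, a low temperature and salt responsive protein, had 9.43, 16.9 and 7.88 CPM at 28°C, against 75.9, 93.1 and 75.2 CPM at 22°C (-2.83). FAD2, an oleate desaturase, was at the cutoff with 1.00. Among all lower genes AT3G16670, of the Ole e 1 family, and AT2G27402, annotated as a plastid protein, had -3.81 and -3.04.

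FIB2, NOP56 and CBF5, proteins of the nucleolus that modify ribosomal RNA, were lower with log2 fold changes of -1.85, -1.29 and -1.18. FIB2 had 19.3, 17.7 and 10.2 CPM at 28°C, against 53.3, 53.7 and 62.9 CPM at 22°C. Collected by product name after these values were seen, 312 ribosomal protein genes were tested, 261 had a negative log2 fold change and the median was -0.56. None was called higher, 47 were called lower with all libraries and 27 in both fits (8.65%), against 3.72% and 2.68% of all tested genes. In immunity WRKY70 was higher at 1.15, the 1 call among 7 tested genes of salicylic acid and immunity. No gene was called in both fits among 14 of chlorophyll synthesis, 18 of cell division and 8 of flowering time. In lists of this size the shares of all tested genes, 3.2% higher and 2.68% lower, would give few calls or none. CO and COL2, which were lower, were counted on the clock list and not on that of flowering time.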

How the data were processed

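Libraries were made from whole seedlings by 3′ Tag-Seq. The authors checked reads with FastQC, aligned them with TopHat and Bowtie2 to TAIR10, counted reads per gene with HTSeq and deposited raw counts, unnormalised. Versions, strand setting and treatment of duplicate reads are not given in the sources used here, which leaves counts uncertain for near-identical copies and for genes that overlap or lie antisense. No molecular identifiers are described, so floors cover counting error only. All 18 columns were matched to labels. The count table lists 33655 genes, of which 18078 passed filterByExpr. Libraries of a group are called biological replicates in the study.

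Counts were fitted with edgeR 4.0.16 (R 4.3.3, TMM, quasi-likelihood test, 1 model of 6 groups), and p-values were adjusted over all tested genes by Benjamini-Hochberg. SE was computed from the size of the log2 fold change over the root of the F statistic. The biological coefficient of variation was 0.128, and 0.0921 without pifQ 22°C replicate 2. The step search used genes of at least 10 CPM and at least 100 genes beside a step. Scripts were tested on simulated data. Lists and members were chosen with earlier results of these data known. Genes named were PIF, HEC, growth-regulator and auxin synthesis genes, and up to 5 per direction per list. Further genes were the 12 largest changes per direction among genes whose groups did not overlap, and the 6 largest response differences from Col-0. Ranks used calls held with and without that library, and other named genes were chosen after their values were seen. The gene ranked among those 6 by this rule that has no value in the text is not reported here. Names, products and upstream sequences come from RefSeq TAIR10.1, and its coordinates are not given. Alternatives were RLE, DESeq2 1.42.0, other filters, fewer libraries, a replicate block, segment offsets, the FDR alone and leaving out each pifQ library.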

Additional observations from a re-analysis of the deposited data

Results flagged for a closer look

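The following responses differed between genotypes by the test of the difference itself, and no explanation was tested. The response of pifQ minus that of Col-0, on the log2 scale, was -3.0 for AT5G02540, -2.30 for AT3G55240, -2.05 for AT1G12080, -1.66 for BGLU6 and -1.57 for AT2G14900. It was -1.28 for AT1G05835, -1.86 for AT1G48100, -1.06 for MSS3 and -1.06 for IAA14. Of the 13 alternative fits, AT5G02540 was called in 13, AT3G55240 in 12, AT1G12080 in 11, BGLU6 in 9, AT2G14900 in 7, AT1G05835, AT1G48100 and MSS3 in 5 and IAA14 in 4.

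Against the libraries labelled hec1hec2, the response of pifQ was lower for AT5G02540 (-3.54), IAA29 (-3.46), HFR1 (-2.68), IPMI1 (-2.53), PIF5 (-2.0), AT1G12080 (-1.98), AT4G30650 (-1.48), AT3G55240 (-1.42), AT1G48100 (-1.58), BGLU6 (-1.41), AT2G14900 (-1.35) and AT1G05835 (-1.32). It was higher for PI (2.90) and LEA18 (1.46). PIF5 is itself mutated in pifQ. Counts of HEC1 were not lost in the libraries labelled hec1hec2, though they do not show a complete transcript. Both points bear on what each of these differences compares.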

How the results depend on the processing

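Counts of calls in pifQ stayed within 1.5 times of 742 higher and 672 lower under every alternative that kept the 2-fold cutoff, with 735 to 976 higher and 595 to 804 lower when each pifQ library was left out in turn. At the FDR alone they were 2372 and 2580. The number of genes whose response differed from Col-0 was small and moved with most settings: 6 with a filter at 1 CPM, 21 with DESeq2, 5 with RLE, 36 with no filter, 1 with the compared libraries alone, 23 with segment offsets and 2 to 26 with libraries left out. Against hec1hec2 it was 145 with no filter, 24 with the compared libraries alone, 133 with segment offsets, 130 at the FDR alone and 33 to 136 with libraries left out. The causes were not tested.

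Of 95 called genes named in the text, 84 kept their call in each of the 13 alternative fits that tested them. The exceptions were APL3, BEE1, CPD, FAD2, GID1C, IAA34, PAR1, SAUR21, TAA1, WRKY70 and XTH20. Fold changes near 0 changed sign for IAA14 (-0.01 with segment offsets, -0.08 to 0.1 with libraries left out), AT1G12080 (0.26 with segment offsets, -0.26 to 0.32 with libraries left out) and AT2G14900 (-0.18 to 0.21 with libraries left out).

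The labels give replicate numbers without saying that a number marks a shared batch, and deviations of same-numbered pifQ libraries correlated at 0.113, 0.0664 and 0.0657, so the numbers were not taken as pairs, although each library correlated best with its own number. With the replicate block 763 genes were higher, 674 lower, 5 differed in response from Col-0 and 97 from hec1hec2. Differences of genes with few counts, such as IAA29 at about 1 CPM in pifQ, are limited by depth.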
